A study of Sus scrofa with 22 samples.

Results

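The genes described here encode chains of the collagens, the laminins and the integrins, the matrix fibres and sheets around cells and the receptors that hold cells to them. They were taken by symbol from the annotation of a pig microarray: collagen symbols of the form COL, number, A, number, laminin symbols beginning LAMA, LAMB or LAMC, and symbols beginning ITGA or ITGB. This gave 31 genes of the 6765 with a named probe set, measured by 57 probe sets, and each gene is represented by its probe set with the highest mean log2 signal over the 22 samples. There were 15 collagen chains, 3 laminin chains, 12 integrin chains and ITGB1BP2, whose symbol begins like that of an integrin but which encodes a protein that binds one. Some well-known relatives, among them COL1A1, COL4A1, the laminin alpha chains and ITGA7, were not analysed here.

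The samples came from offspring of German Landrace gilts, all fed a gestation diet with adequate protein, so every group shares that diet and no other diet was analysed here. The 4 groups were 94 days post conception (94 dpc, late fetal, n = 6) and 1, 28 and 188 days post natum (1 dpn, n = 6; 28 dpn, n = 6; 188 dpn, n = 4). Offspring of 3 gilts were collected at each stage. Which animal came from which gilt is not labelled, so littermates count as separate animals and p-values are too small where littermates are alike. Every sample label names liver, whereas the series title names muscle. The summed signal of 10 skeletal muscle markers was 272500 to 742840 on the 22 arrays, and that of 11 liver markers was 1919 to 53845, with albumin (ALB) averaging 291 at 94 dpc, 375 at 1 dpn, 873 at 28 dpn and 904 at 188 dpn. These sums compare different probe sets and so only roughly, but by them the markers go against the tissue in the sample labels. The liver sum reached its highest values at 94 dpc (7845 to 53845), and ALB varied widely between arrays of a stage. The part of these liver transcripts in the results was not tested.

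Collagens are triple helices of alpha chains. Types I, III and V form the banded fibrils of the connective tissue sheaths of muscle, type VI forms beaded filaments close to the fibre surface, and type IV forms the network of the basement membrane. Laminins are cross-shaped trimers of an alpha, a beta and a gamma chain, and they polymerise on the surface of each muscle fibre, nerve sheath and capillary. Integrins are pairs of an alpha and a beta chain in the cell membrane that bind these proteins outside and the actin cytoskeleton inside. In skeletal muscle they sit at the fibre membrane, at the tendon junction and on satellite cells, fibroblasts, vessels and blood cells. The roles named below are those known in mammals, mostly from human and mouse work.

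Signal is the deposited linear intensity of a probe set, whose trimmed mean is nearly the same on all arrays. Stages were compared on log2(signal + 16) with limma over 23999 probe sets, a call is an adjusted p under 0.05, and a log2 change of a dim gene understates its change. Background, the 95th percentile of 23 control probe sets with no target, lay at a signal of 69.7. Of the 31 genes, 18 had a mean above background at all 4 stages, 9 at some stages and 4 (COL7A1, COL10A1, ITGA6 and ITGB7) at none. Median signal per array was 115 to 162. On 4 of the 6 arrays of 1 dpn (replicates 2 to 5) the control probe sets of GAPDH gave a 5'/3' signal ratio of 0.140 to 0.332, a sign of shortened or incompletely copied RNA, against 0.731 to 1.26 on all other arrays, 1 dpn replicates 1 and 6 among them. By the actin control probe sets this ratio was 0.0306 to 0.0386 on the same 4 arrays. It was 0.201 and 0.0970 on 1 dpn replicates 1 and 6, and 0.0989 to 0.238 at the other stages. Even or low 5' signal below refers to GAPDH. Most calls that involve 1 dpn, and the counts by list, are therefore also given without those 4 arrays. In whole tissue, fewer cells of a type and less RNA per cell cannot be told apart.

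Over the 4 stages 21 of the 31 genes differed (limma F test), a background of 51.4% of all probe sets. The called genes comprised 3 of 3 laminin chains, 2 of 2 basement membrane collagens, 5 of 7 fibrillar collagens, 2 of 5 beaded filament, network and anchoring collagens, 7 of 8 integrin chains of laminin, collagen and fibronectin receptors, 1 of 4 leukocyte and platelet integrin chains, and ITGB1BP2. The transmembrane collagen COL17A1 was not among them. The smallest F test adjusted p was that of LAMB2, 7.9e-10, followed by LAMB1 with 4e-09 and COL4A2 with 9.5e-09.

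At 1 dpn, against 94 dpc, 13 of the 31 genes were lower and 1 was higher, where 21.7% of all probe sets were lower and 10.9% higher. Taking the brightest probe set of every named gene, these shares were 23.8% and 17.3%, against 41.9% and 3.23% of the members. The lower genes were the fibrillar collagens COL1A2, COL5A1 and COL5A2, the basement membrane collagens COL4A2 and COL15A1, the type VI chains COL6A2 and COL6A3, the laminin beta chains LAMB1 and LAMB2, and the integrin chains ITGB1, ITGB3, ITGB5 and ITGAV. The higher gene was ITGB1BP2. The median log2 change was -0.34 over the members, against -0.08 over all probe sets. Every 1 dpn value lay below every 94 dpc value in 10 of the 31 genes, all of them called lower. Of all probe sets 11.2% showed that pattern, which rests on the same values as the calls. Birth and the last weeks of gestation both lie between these stages and cannot be told apart.

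At 28 dpn, against 1 dpn, 5 of the 31 were higher and 1 lower, where 13.9% of all probe sets were higher and 8.39% lower, and among the brightest probe sets of named genes 15.1% and 12.9%, so the share of higher members (16.1%) lay near the background. The higher genes were COL1A2, COL5A2, LAMB2, ITGAV and ITGAM, and the lower one was LAMC1. The split depended on the scaling of the arrays: 3 were higher and 3 lower after quantile normalization, and 2 were higher and 5 lower with each array centred on its median. Of the 13 genes lower at 1 dpn than at 94 dpc, 4 were higher again at 28 dpn and 9 were not called. The 2 comparisons share the 1 dpn samples, so a value that was low there by chance enters both.

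At 188 dpn, against 28 dpn, 10 of the 31 were lower and 0 higher, where 8.2% of all probe sets were lower and 3.65% higher (11% and 5.03% of the brightest probe sets of named genes). The lower genes were all 3 laminin chains, COL1A2, COL5A1, COL4A2, COL6A2, COL6A3, ITGB3 and ITGB1BP2. The median log2 change was -0.75, against -0.12 over all probe sets. Every 188 dpn value lay below every 28 dpn value in 10 of the 31 genes, the same 10 that were called lower. Of all probe sets 8.13% showed that pattern. At 188 dpn, against 94 dpc, 17 were lower and 2 higher, where 22.5% of all probe sets were lower and 13.6% higher (27% and 18.4% of the brightest probe sets of named genes). The median log2 change was -0.89, against -0.07 over all probe sets. Every 188 dpn value lay below every 94 dpc value in 17 of the 31 genes, the same 17 that were called lower. Of all probe sets 21.4% showed that pattern. Of these 17 genes, 12 had also been called lower at 1 dpn than at 94 dpc, and the 2 comparisons share the 94 dpc samples. The other 5 were COL2A1, COL5A3, LAMC1, ITGA5 and ITGB1BP2.

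**Figure D1:**
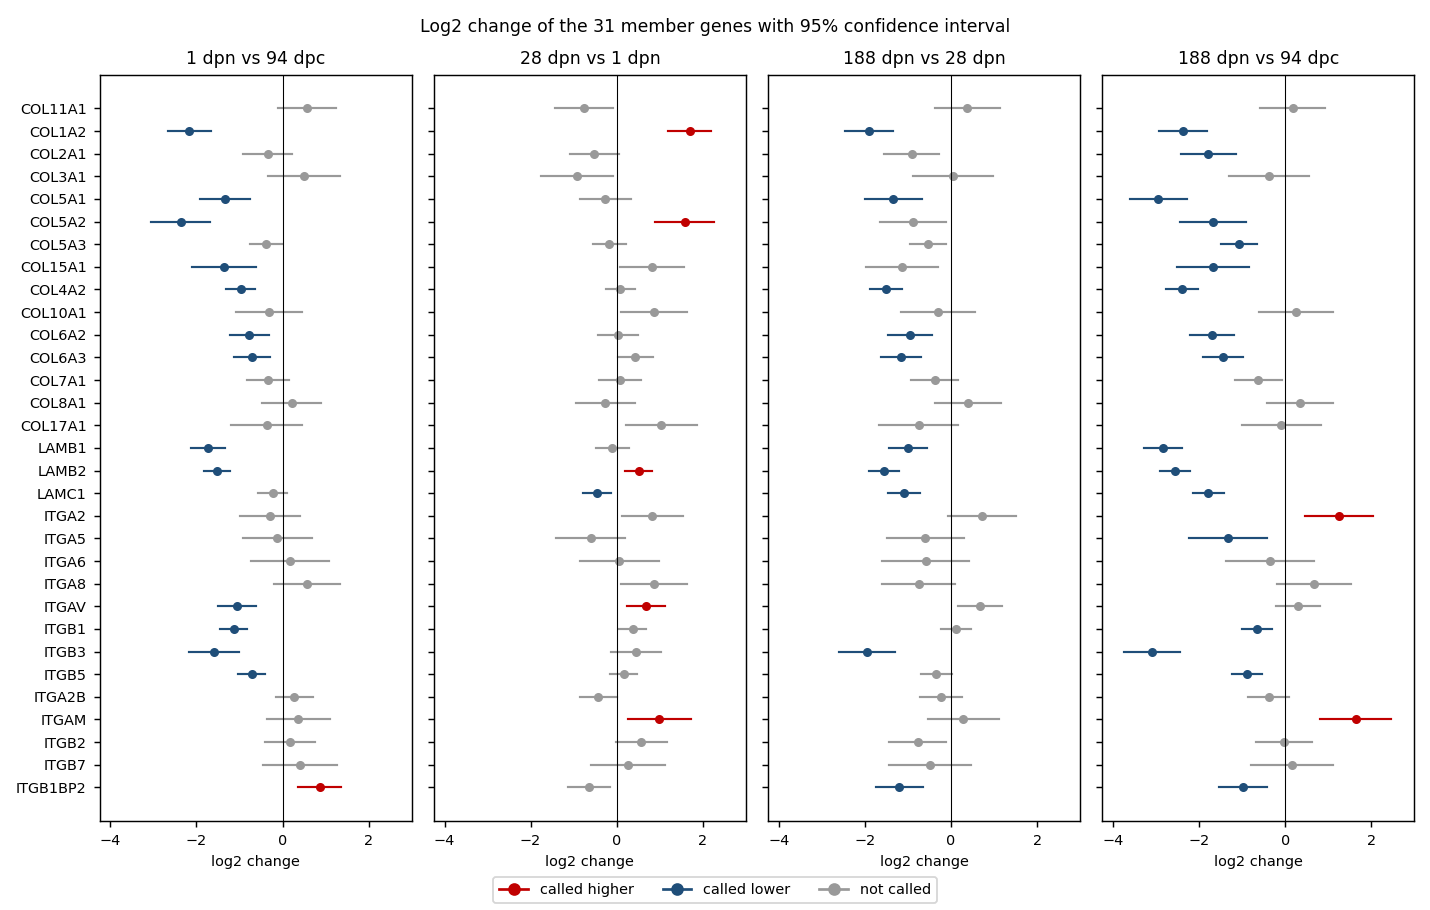
Log2 change of the 31 genes in 4 comparisons, with the 95% confidence interval as a bar, ordered by role from fibrillar collagens at the top to ITGB1BP2 at the bottom. Blue marks lower calls (13, 1, 10 and 17 from left to right), red marks higher calls (1, 5, 0 and 2), and grey marks genes not called; laminin chains and the basement membrane collagens lie left of 0 in the panels for 1 dpn against 94 dpc, 188 dpn against 28 dpn and 188 dpn against 94 dpc.

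COL1A2 encodes a chain of type I collagen, the main fibrillar collagen of tendon and of the muscle sheaths. Its signal was 1641 to 3700.3 (median 2215) at 94 dpc and 363 to 854 (median 482) at 1 dpn. At 28 dpn it was 832 to 2333 (median 1846), and the 4 animals of 188 dpn had 538, 467, 403 and 351. The 1 dpn and 188 dpn values all lay below every 94 dpc value, and at 28 dpn replicate 6 alone, with 832, reached down into the range of 1 dpn. COL1A2 fell by 2.17 on the log2 scale at 1 dpn against 94 dpc (SE 0.24, adjusted p = 6.6e-07) and was 3.24-fold higher at 28 dpn than at 1 dpn (log2 change 1.69, SE 0.24, adjusted p = 3e-05). It was lower again at 188 dpn than at 28 dpn (log2 change -1.90, SE 0.27, adjusted p = 0.00011). Relative to the 94 dpc mean, the later means were 21.8% at 1 dpn, 72.6% at 28 dpn and 18.3% at 188 dpn. The 2 even arrays of 1 dpn had 522 and 854, above the 363 to 493 of the 4 with low 5' signal, and on them alone both calls were kept (log2 change -1.77, adjusted p = 0.000887, against 94 dpc; 1.30, adjusted p = 0.0136, for 28 dpn). The dimmer COL1A2 probe set was lower at 1 dpn than at 94 dpc too (log2 change -1.93, adjusted p = 0.00217), but its change at 28 dpn against 1 dpn was 0.09 and not called.

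Type V collagen lies in the core of type I fibrils and sets how they begin and how wide they grow. COL5A1 signal was 4985 to 7109 (median 6679) at 94 dpc, 739 to 3456 (median 3084) at 1 dpn and 1609.7 to 2909 (median 2056) at 28 dpn. At 188 dpn the 4 values were 1087, 715, 701 and 825. Every later value lay below every 94 dpc value, the ranges of 1 dpn and 28 dpn overlapped, and 188 dpn lay below 28 dpn. COL5A1 was 2.53-fold lower at 1 dpn than at 94 dpc (log2 change -1.34, SE 0.28, adjusted p = 0.00083; -2.08 and 0.000368 with only the even arrays), was not called at 28 dpn against 1 dpn (log2 change -0.26), and was 2.53-fold lower at 188 dpn than at 28 dpn (SE 0.32, adjusted p = 0.0071). Over the whole span it fell by 2.95 on the log2 scale (SE 0.32, adjusted p = 1.5e-07). Replicate 1 of 1 dpn had 739, where the other 5 arrays of that stage had 3065 to 3456. A nearly equally bright COL5A1 probe set gave -1.14 at 1 dpn, -1.06 at 28 dpn against 1 dpn (called, adjusted p = 0.0232) and -3.71 at 188 dpn against 94 dpc on the log2 scale.

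COL5A2 encodes the partner chain of COL5A1 in the common form of type V collagen. Its signal was 159 to 281 (median 224) at 94 dpc, and the 6 arrays of 1 dpn had 66.3, 10.7, 35.6, 10.7, 18.6 and 67.3. At 28 dpn it was 62.0 to 235 (median 115), and at 188 dpn 20.8, 59.1, 88.7 and 81.8. Every 1 dpn value lay below background, so COL5A2 was at least 2.73-fold lower at 1 dpn than at 94 dpc (adjusted p = 9.7e-06) and at least 1.58-fold higher at 28 dpn than at 1 dpn (adjusted p = 0.00132). The 2 highest 1 dpn values were those of the 2 arrays with even 5' signal, replicates 1 and 6. On these 2 alone the fall was still called (log2 change -1.50, adjusted p = 0.00888), and the later rise was not (log2 change 0.71, adjusted p = 0.251). At 188 dpn the mean was 62.6, below background with 2 of 4 arrays above it, against 222 at 94 dpc (log2 change -1.68, adjusted p = 0.00088). The other COL5A2 probe set, with means below background at every stage, did not show the fall at 1 dpn and the return. It averaged 57.5 at 94 dpc, 54.5 at 1 dpn, 38.4 at 28 dpn and 30.3 at 188 dpn.

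COL5A3, another type V chain, was 966 to 1174 (median 1087) at 94 dpc, 578 to 1054 (median 855) at 1 dpn and 584 to 1119.7 (median 717) at 28 dpn, with 638, 398, 534 and 481 at 188 dpn. The steps between successive stages were not called, and the 188 dpn values lay below every 94 dpc value (log2 change -1.08, SE 0.20, adjusted p = 0.00018). In a dimmer COL5A3 probe set, with means above background at all stages, these groups overlapped. It had 90.3 to 146 (mean 129.7) at 94 dpc and 13.9 to 138 (mean 100.3) at 188 dpn. COL2A1 encodes the main collagen of cartilage. Its means were 185 at 94 dpc, 149.8 at 1 dpn, 102 at 28 dpn and 41.9 at 188 dpn, where all 4 arrays (38.9, 51.3, 42.8 and 34.3) lay below background. It was thus at least 2.31-fold lower at 188 dpn than at 94 dpc (adjusted p = 7.1e-05), and no single step was called. The other COL2A1 probe set, with means below background at every stage, showed no fall. It averaged 24.4 at 94 dpc and 35.9 at 188 dpn.

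COL3A1, the type III chain that shares fibrils with type I, and COL11A1, a cartilage fibril chain, were called in no comparison. COL3A1 signal was 43.2 to 175 (median 96.8) at 94 dpc and 49.1 to 341 (median 163) at 1 dpn. Its 1 dpn values split with the GAPDH ratio: replicates 1 and 6 had 53.6 and 49.1, and the 4 arrays with low 5' signal had 112 to 341. At 28 dpn COL3A1 was 37.3 to 122 (median 54.1), and at 188 dpn 50.6, 94.2, 90.4 and 47.9. Of the 22 COL3A1 values 12 lay above background. The 95% interval of its log2 change ran from -1.31 to 0.56 for 188 dpn against 94 dpc. For COL11A1 that interval ran from -0.58 to 0.93, and 10 of its 22 values lay above background.

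**Figure D2:**
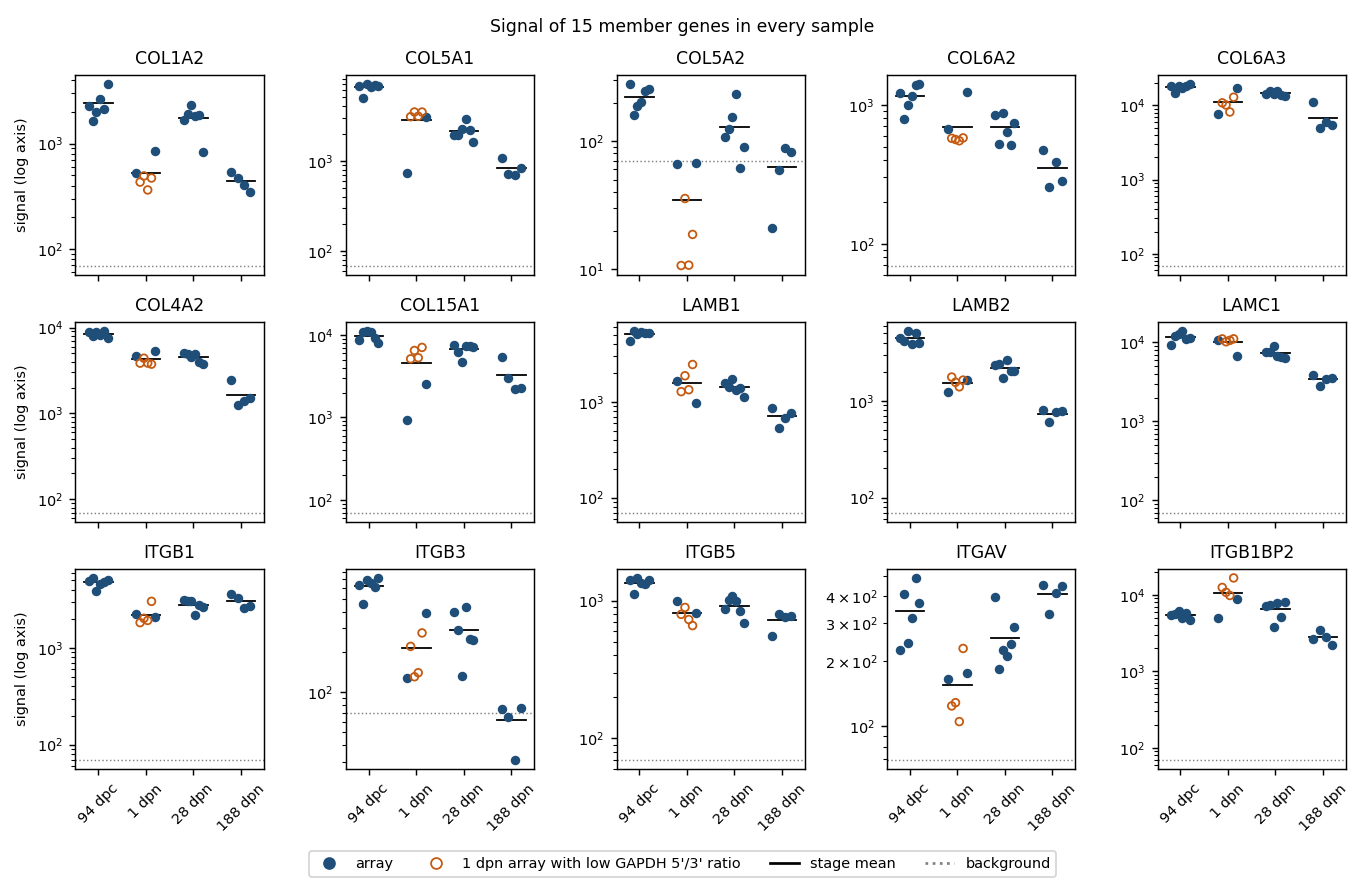
Signal of 15 genes on each of the 22 arrays (log axis), by stage from 94 dpc to 188 dpn, with stage means as black lines and background (69.7) as a dotted line; open orange circles are the 4 arrays of 1 dpn with a low GAPDH 5'/3' ratio. COL1A2 drops at 1 dpn, returns at 28 dpn and is low at 188 dpn, LAMC1 steps down at each stage after 1 dpn, and COL15A1, COL5A2 and COL6A2 separate the open from the filled circles at 1 dpn.

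COL4A2 encodes a chain of the type IV network that gives basement membranes their strength. Its signal was 7575 to 9172 (median 8449.6) at 94 dpc and 3746 to 5287 (median 4126) at 1 dpn. It was 3759 to 5064 (median 4747) at 28 dpn, and the 188 dpn values were 2420, 1244, 1390.1 and 1492. The values form 3 separate levels: 94 dpc above, 1 dpn and 28 dpn together in the middle, and 188 dpn below, with no overlap between levels. COL4A2 fell by 0.98 on the log2 scale at 1 dpn against 94 dpc (SE 0.16, adjusted p = 6.6e-05), differed by 0.08 at 28 dpn against 1 dpn (95% interval -0.25 to 0.41, not called), and fell by 1.50 at 188 dpn against 28 dpn (SE 0.18, adjusted p = 1.7e-05). At 188 dpn it was 5.28-fold lower than at 94 dpc (adjusted p = 1.1e-09). The first fall was called on the even arrays as well (log2 change -0.76, adjusted p = 0.0161).

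COL15A1 encodes type XV collagen, which bridges basement membranes to the fibrils outside and is found around muscle fibres and capillaries. Its signal was 8038 to 11270 (median 10057) at 94 dpc, 4764 to 7663 (median 7227) at 28 dpn and 5471, 3046, 2244 and 2272 at 188 dpn. The 1 dpn arrays differed with the GAPDH ratio: the 2 even ones had 932 and 2559, and the 4 with low 5' signal had 5141 to 7077. All 6 lay below every 94 dpc value, and the fall was called with all arrays (log2 change -1.36, SE 0.36, adjusted p = 0.00542), on the even arrays (log2 change -2.65, adjusted p = 3.27e-05) and on the others (log2 change -0.71, adjusted p = 0.015). The rise at 28 dpn against 1 dpn was called on the even arrays only (log2 change 2.10, adjusted p = 0.000493, against 0.81 and 0.113 with all 6). At 188 dpn replicate 1, with 5471, lay inside the range of 28 dpn and the other 3 below it, and the difference was not called (log2 change -1.13, adjusted p = 0.0707). Against 94 dpc all 4 were lower (log2 change -1.68, SE 0.40, adjusted p = 0.00197).

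Type VI collagen is assembled from chains that include COL6A2 and COL6A3, and in humans lack of it causes muscular dystrophies of the Ullrich and Bethlem types. COL6A3 signal was 14524 to 19696 (median 18092) at 94 dpc, 7794 to 17005 (median 10511) at 1 dpn and 13357 to 15632 (median 14302) at 28 dpn. The 188 dpn values were 11005, 4996, 5953 and 5385. At 188 dpn replicate 1 lay apart from the other 3 animals and still below every 28 dpn value. COL6A2 signal was 785 to 1418 (median 1192) at 94 dpc, 550.3 to 1225 (median 575) at 1 dpn and 510.2 to 877 (median 688) at 28 dpn, with 474, 255, 389 and 282 at 188 dpn. In both genes the 1 dpn range reached into that of 94 dpc through replicate 6, an even array (17005 for COL6A3 and 1225 for COL6A2). With all arrays both were called lower at 1 dpn than at 94 dpc (log2 change -0.71, adjusted p = 0.00781, for COL6A3 and -0.77, adjusted p = 0.00957, for COL6A2), and on the even arrays neither was (-0.61, adjusted p = 0.128, and -0.33, adjusted p = 0.485). Both were lower at 188 dpn than at 28 dpn, COL6A3 with a log2 change of -1.16 (SE 0.22, adjusted p = 0.00149) and COL6A2 with -0.95 (SE 0.25, adjusted p = 0.0136). The call of COL6A2 in that step was lost without replicate 2 of 188 dpn (adjusted p = 0.0646). Against 94 dpc the 188 dpn means were 38.6% for COL6A3 and 30.1% for COL6A2 (adjusted p = 1.8e-05 and 9.1e-06).

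The remaining collagens gave no call in any comparison. COL17A1, a transmembrane collagen of epithelial hemidesmosomes, had means of 117, 94.0, 193 and 110.4 from 94 dpc to 188 dpn, with 17 of 22 values above background. COL8A1, a network collagen of vessel walls, had means of 62.2, 82.6, 65.0 and 84.0 in the same order, with 12 of 22 values above background. COL10A1, the collagen of hypertrophic cartilage, had 3 of 22 values above background. COL7A1, the anchoring fibril collagen of skin, had 0 of 22.

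All 3 measured laminin chains were lower at 188 dpn than at 28 dpn and than at 94 dpc. The beta chain LAMB1 is widely made in embryonic tissue. LAMB1 signal was 4279.7 to 5522 (median 5249) at 94 dpc and 974 to 2455 (median 1488) at 1 dpn. It was 1133 to 1751 (median 1414) at 28 dpn, and the 188 dpn animals had 858, 539, 685 and 766. All later values lay below every 94 dpc value, those of 1 dpn and 28 dpn overlapped, and those of 188 dpn lay below both. LAMB1 was 3.33-fold lower at 1 dpn than at 94 dpc (log2 change -1.74, SE 0.19, adjusted p = 5.1e-07; -2.0 on the even arrays), differed by -0.10 at 28 dpn (95% interval -0.49 to 0.29), and fell by 1.00 on the log2 scale at 188 dpn against 28 dpn (SE 0.21, adjusted p = 0.00324). At 188 dpn its mean was 13.9% of that at 94 dpc (log2 change -2.84, SE 0.21, adjusted p = 1.1e-09). A dimmer LAMB1 probe set went the same way in 3 of the 4 comparisons and was higher at 28 dpn than at 1 dpn, with means of 437 and 102 (log2 change 2.03, adjusted p = 2.1e-06). The level of LAMB1 at 28 dpn relative to 1 dpn thus depended on the probe set.

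LAMB2 encodes the beta chain that is enriched at the neuromuscular junction. Its signal was 3844 to 5332 (median 4314) at 94 dpc, 1245 to 1769.6 (median 1603) at 1 dpn and 1709.5 to 2628 (median 2219) at 28 dpn. At 188 dpn it was 809, 609, 761 and 783. Every 1 dpn and 28 dpn value lay below 94 dpc, the lowest of 28 dpn lay within the 1 dpn range, and 188 dpn lay below all others. LAMB2 fell by 1.52 on the log2 scale at 1 dpn against 94 dpc (SE 0.15, adjusted p = 1.4e-07), was 1.42-fold higher at 28 dpn than at 1 dpn (log2 change 0.51, SE 0.15, adjusted p = 0.0164) and was 2.93-fold lower at 188 dpn than at 28 dpn (SE 0.17, adjusted p = 4.5e-06). Its fall over the whole span, log2 -2.57 (SE 0.17), had the smallest adjusted p of the 31 genes in that comparison, 1.7e-10. On the even arrays the first fall was -1.62, and the rise at 28 dpn was 0.61 with an adjusted p of 0.0507.

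LAMC1 encodes the gamma chain shared by most laminins. Its signal was 9344 to 14048 (median 11736) at 94 dpc and 6685 to 11110 (median 10754) at 1 dpn. It was 6324 to 8901 (median 7146) at 28 dpn and 3859.5, 2794, 3475 and 3522 at 188 dpn. The 94 dpc and 1 dpn ranges overlapped, and 188 dpn lay below all others. The change at 1 dpn against 94 dpc was not called (log2 change -0.23, 95% interval -0.56 to 0.10), unlike those of LAMB1 and LAMB2; the difference between these genes was not tested. LAMC1 was 2.12-fold lower at 188 dpn than at 28 dpn (SE 0.18, adjusted p = 0.00039) and 3.44-fold lower than at 94 dpc (SE 0.18, adjusted p = 5.4e-08). The size of that fall depended on the probe set. The 188 dpn mean was 28.9% of the 94 dpc mean here, and 73.5%, 60.1% and 62.7% in the other, dimmer LAMC1 probe sets. Its lower signal at 28 dpn than at 1 dpn (log2 change -0.46, SE 0.16, adjusted p = 0.0376) lost the call in 10 of the 22 fits that left out 1 sample (adjusted p up to 0.0791, without replicate 6 of 28 dpn), and with only the even arrays (adjusted p = 0.502). A dimmer LAMC1 probe set disagreed in both steps around 1 dpn, with -1.76 against 94 dpc (adjusted p = 0.0048) and 1.82 at 28 dpn against 1 dpn (adjusted p = 0.00611). Its log2 signal on the 1 dpn arrays with low 5' signal minus that on the 2 even ones was -2.43. All probe sets had -1.21 as the 5th and 1.24 as the 95th percentile of this difference. Another dimmer LAMC1 probe set had a higher mean at 1 dpn than at 94 dpc (534 and 380), with overlapping ranges.

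**Figure D3:**
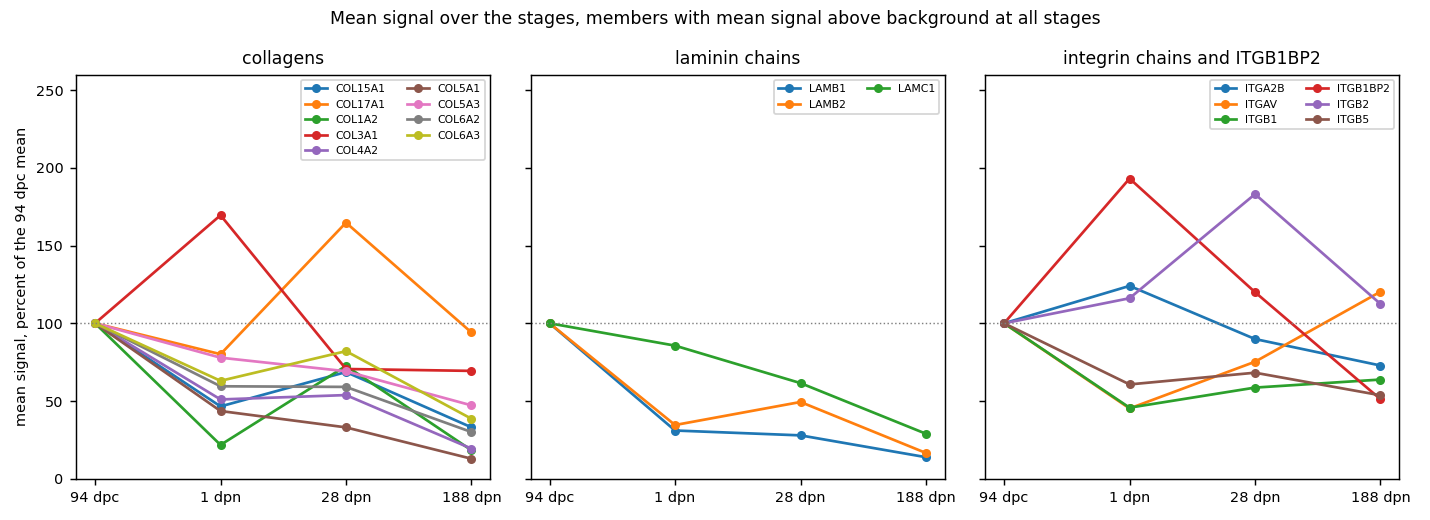
Mean signal of the 18 genes with a mean above background at all 4 stages, as a percentage of each gene's own 94 dpc mean, for collagens, laminin chains and integrin-named genes. At 188 dpn the 3 laminin chains lie at 13.9, 16.6 and 28.9%, COL1A2 and COL4A2 at 18.3 and 19.4%, and ITGAV, ITGB2, COL17A1 and ITGA2B between 72.8 and 120.3%.

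ITGB1 encodes the beta chain of the main laminin, collagen and fibronectin receptors. Its signal was 3904 to 5291 (median 4910.4) at 94 dpc, 1825 to 3029 (median 2056) at 1 dpn and 2167 to 3129 (median 2909.9) at 28 dpn. At 188 dpn it was 3615, 3284, 2597 and 2711. All 3 later stages lay below 94 dpc and overlapped one another. ITGB1 was 2.20-fold lower at 1 dpn than at 94 dpc (log2 change -1.14, SE 0.15, adjusted p = 6.7e-06; -1.13 on the even arrays), and the later steps were 0.37 (95% interval 0.05 to 0.69) and 0.12 (-0.24 to 0.47), neither called. At 188 dpn it was 1.57-fold lower than at 94 dpc (SE 0.17, adjusted p = 0.00435).

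ITGAV, ITGB3 and ITGB5 form the receptors for vitronectin and other proteins with an RGD motif. ITGB3 signal was 460.2 to 716 (median 646) at 94 dpc, 128 to 390.1 (median 179.6) at 1 dpn and 131 to 434 (median 271) at 28 dpn. At 188 dpn the values were 74.8, 64.4, 31 and 76.1, with 2 of 4 above background. Their mean of 61.6 lies below background, so the size of the changes to 188 dpn is uncertain. ITGB3 fell by 1.59 on the log2 scale at 1 dpn against 94 dpc (SE 0.28, adjusted p = 0.00015; log2 change -1.40 and adjusted p = 0.015 with only the even arrays), and by 1.95 at 188 dpn against 28 dpn (SE 0.31, adjusted p = 0.00035). The step at 28 dpn against 1 dpn was not called (log2 change 0.45). Over the whole span the change was -3.09 (SE 0.31, adjusted p = 7.7e-08). ITGB5 signal was 1119.6 to 1461 (median 1371) at 94 dpc and 658 to 998 (median 804) at 1 dpn, and 551, 796, 765 and 770.5 at 188 dpn. It was 1.64-fold lower at 1 dpn than at 94 dpc (SE 0.15, adjusted p = 0.00085; 0.0507 without the arrays of low 5' signal) and 1.86-fold lower at 188 dpn than at 94 dpc (adjusted p = 0.00021), with no call in between.

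ITGAV, the alpha chain of these receptors, was not called lower at 188 dpn. Its signal was 226 to 487 (median 345) at 94 dpc and 105 to 229 (median 147) at 1 dpn. It was 184 to 396 (median 233) at 28 dpn and 453, 332, 416 and 448 at 188 dpn. The 1 dpn range reached just into that of 94 dpc through replicate 5, the 28 dpn range overlapped both, and the 188 dpn values lay within the 94 dpc range. ITGAV was 2.09-fold lower at 1 dpn than at 94 dpc (SE 0.22, adjusted p = 0.00062; log2 change -0.89 and adjusted p = 0.0295 on the even arrays) and 1.60-fold higher at 28 dpn than at 1 dpn (SE 0.22, adjusted p = 0.0267). That second call was lost without replicate 2, 3 or 4 of 1 dpn and without replicate 1 or 6 of 28 dpn (adjusted p up to 0.0749), and on the even arrays (adjusted p = 0.26). At 188 dpn against 94 dpc its log2 change was 0.29 (95% interval -0.21 to 0.80, not called).

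Of the alpha chains that pair with ITGB1, ITGA5, the fibronectin receptor chain, had means of 172 at 94 dpc, 162 at 1 dpn, 118 at 28 dpn and 62.3 at 188 dpn. The 188 dpn values were 52.5, 30.4, 58.3 and 108, 1 of 4 above background and all below the 134 to 218 (median 170.2) of 94 dpc. The log2 change was -1.33 (SE 0.43, adjusted p = 0.0187), a call lost without replicate 2 of 188 dpn (adjusted p = 0.0783). The other ITGA5 probe set showed no fall, with means of 56.4 at 94 dpc and 62.0 at 188 dpn, both below background. ITGA2, a chain of a collagen receptor, had 72.5, 92.5, 101 and 39.1 at 188 dpn, 3 of 4 above background, where all 94 dpc values lay below background (highest 31.8), and was at least 1.04-fold higher (adjusted p = 0.0115). Its other probe set, which lay below background on all 4 arrays of 188 dpn and on 4 of the 6 of 94 dpc, was called in the opposite direction (2.65 at 188 dpn and 54.9 at 94 dpc, adjusted p = 4.3e-06), so no direction can be given for ITGA2. ITGA8, a chain of mesenchymal and smooth muscle cells, passed the F test (adjusted p = 0.0194) without a call in any of the 4 comparisons. Its means were 27.1 at 94 dpc, 53.8 at 1 dpn, 99.4 at 28 dpn and 56.5 at 188 dpn, with 9 of 22 values above background. ITGA6, a laminin receptor chain, had 2 of 22 values above background.

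Of the 4 leukocyte and platelet integrin chains only ITGAM was called in any comparison. ITGB2, the common beta chain of leukocytes, had means of 120.2 at 94 dpc, 139.6 at 1 dpn, 220.1 at 28 dpn and 135 at 188 dpn and was not called. ITGA2B, the platelet chain that pairs with ITGB3, had means of 116 at 188 dpn and 159 at 94 dpc and was not called either (95% interval of the log2 change -0.87 to 0.10). ITGAM, the alpha chain of myeloid cells, had 91.7, 65.7, 64.0 and 62.5 at 188 dpn, 1 of 4 above background, and 2.29 to 33.6 (median 8.28) at 94 dpc, so it was at least 1.01-fold higher (adjusted p = 0.00216). Its mean at 28 dpn was 64.5, against 23.0 at 1 dpn. Both means lie below background, so no fold is given, and the call (adjusted p = 0.0484) was lost in 19 of the 22 fits without 1 sample (adjusted p up to 0.128, without replicate 1 of 28 dpn) and with only the even arrays (adjusted p = 0.603). The other ITGAM probe set, with means below background at every stage, showed neither rise. It averaged 29.7 at 94 dpc and 27.9 at 188 dpn, and 49.1 at 1 dpn and 18.3 at 28 dpn. Both ITGAM calls thus rest on 1 probe set near background. ITGB7, a lymphocyte chain, had 1 of 22 values above background.

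ITGB1BP2, known as melusin, is made in skeletal and heart muscle and binds the inner end of the ITGB1 chain. It was the only one of the 31 genes called higher at 1 dpn than at 94 dpc, where ITGB1 itself was lower. Its signal was 4631 to 6155 (median 5605) at 94 dpc and 3767 to 8030.5 (median 7275) at 28 dpn, and 2679, 3526, 2817 and 2199 at 188 dpn. At 1 dpn the 2 even arrays had 4973 and 8759.9 and the other 4 had 9826 to 16673, so the stage overlapped 94 dpc through replicate 1. With all arrays the log2 change was 0.86 (SE 0.24, adjusted p = 0.00742), and with only the 2 even ones 0.27 (adjusted p = 0.549). A dimmer probe set gave -0.19, not called, against 94 dpc, and 0.90 at 28 dpn against 1 dpn (adjusted p = 0.0115), where the brighter one gave -0.64. The fall at 188 dpn was called by both, -1.20 (SE 0.27, adjusted p = 0.00478) by the brighter and -0.92 (adjusted p = 0.034) by the dimmer. Against 94 dpc the 188 dpn animals lay below every value by the brighter probe set (log2 change -0.98, adjusted p = 0.00578). The dimmer one gave -0.21 there, not called (adjusted p = 0.618), with 2443 to 4282 at 188 dpn and 3211 to 4040 at 94 dpc, so its groups overlapped.

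Calls in the steps around 1 dpn differed with and without the 4 arrays of that stage with low 5' signal. Over all 31 genes the median difference between these arrays and the 2 even ones was 0.33 on the log2 scale, against 0.13 over all probe sets. Against 94 dpc, 10 of the 14 calls were kept on the even arrays, COL6A2, COL6A3, ITGB5 and ITGB1BP2 were lost, and COL5A3 and COL7A1 were added, where 17.6% of all probe sets were called lower and 7.79% higher. All 14 calls were kept without each single sample. For 28 dpn against 1 dpn only COL1A2 of the 6 calls was kept on the even arrays, where 11.2% of all probe sets were called higher and 5.39% lower. COL15A1 and COL17A1 were added. With only the 4 arrays of low 5' signal at 1 dpn, all 49 gene calls of the 4 comparisons were kept. With 2 arrays the fit has less power, and the part of RNA quality in the lost calls was not tested.

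**Figure D4:**
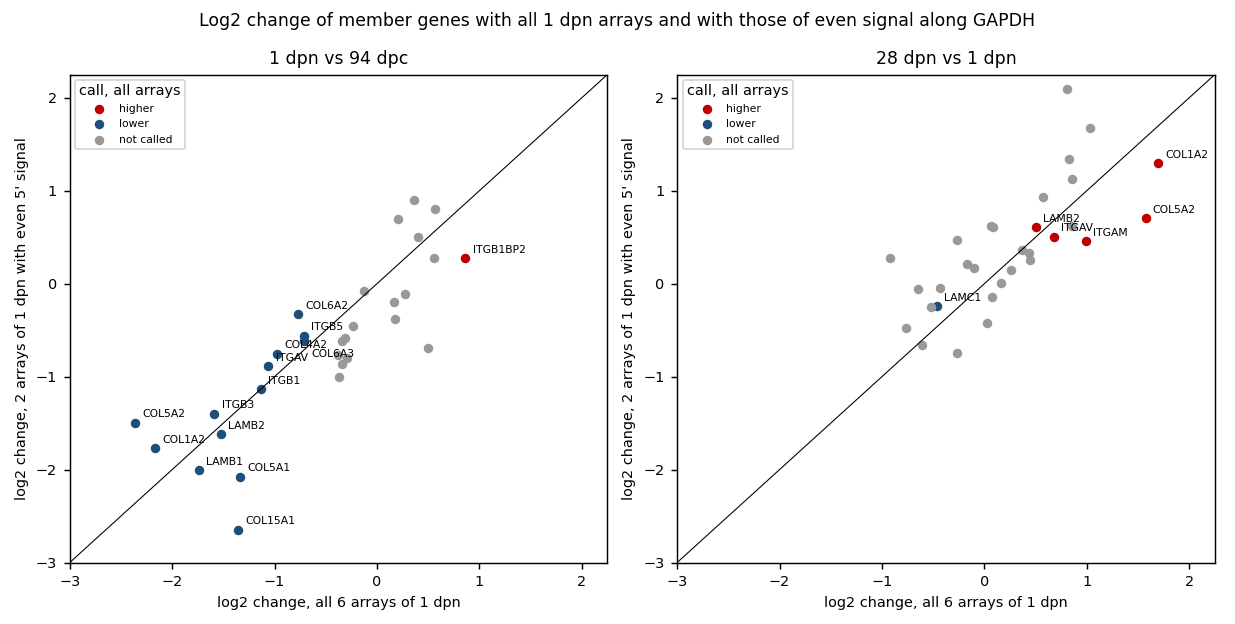
Log2 change of the 31 genes with all 6 arrays of 1 dpn (horizontal axis) and with only the 2 arrays of even 5' signal (vertical axis), for 1 dpn against 94 dpc and 28 dpn against 1 dpn; the line marks equal values. In the left panel all 13 lower genes stay below 0 and COL15A1 and COL5A1 lie farther from it on the even arrays, and in the right panel COL5A2 and ITGAM lie below the line.

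Animals of 188 dpn differed in most of these genes together. Of the 18 genes with means above background at all stages, 13 were highest in replicate 1 of the 4 animals, among them all 3 laminin chains and COL1A2, COL4A2, COL5A1, COL6A2, COL6A3 and COL15A1. Replicate 2 was lowest in 9 of the 18, laminin chains included. Sums of several marker lists were also highest in replicate 1. Its leukocyte sum was 3901 against 1266 to 1615 in the other 3 animals, and its fibroblast sum 24037 against 15838 to 17123. Its endothelial sum was 5822 against 4267 to 4711, and its liver sum 6729 against 1919 to 3321. Other sums did not follow. Replicate 1 was lowest in pericyte and smooth muscle markers (33920 against 35583 to 43911) and in satellite cell and myogenic markers (5109 against 6685.5 to 8200). Its skeletal muscle and adipocyte sums were neither highest nor lowest. The part of any of these cell types in the high values of replicate 1 was not tested. At the other stages no animal was highest in more than 8 or lowest in more than 8 of the 18. Those stages have 6 animals each, and an animal is more often highest or lowest among 4 than among 6. These counts are thus not directly comparable.

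Genes around these chains were counted from related lists that hold none of the 31 genes. Beside all list counts stand the shares of the brightest probe sets of named genes. At 1 dpn against 94 dpc 23.8% were lower and 17.3% higher. At 28 dpn against 1 dpn 12.9% were lower and 15.1% higher. At 188 dpn 11% were lower and 5.03% higher than at 28 dpn, and 27% lower and 18.4% higher than at 94 dpc. In the list of collagen processing, 11 of 12 measured genes were lower at 188 dpn than at 94 dpc and 0 higher, and 7 were lower and 0 higher both at 1 dpn against 94 dpc and at 188 dpn against 28 dpn. The median log2 change of the list over the whole span was -2.07. FKBP10, a chaperone of procollagen, averaged 236 at 188 dpn and 2891 at 94 dpc (log2 change -3.56, SE 0.32, adjusted p = 1.5e-08). LOXL1, which cross-links elastin and collagen, averaged 169.7 and 1464 at these stages (adjusted p = 0.00018), and BMP1, which cleaves the C-terminal propeptide of procollagen, 127 and 811 (adjusted p = 7.3e-09). SERPINH1, the collagen chaperone of the endoplasmic reticulum, averaged 1383 at 1 dpn and 3013 at 94 dpc (log2 change -1.59, adjusted p = 0.00141). At 28 dpn against 1 dpn 3 of the 12 were lower and 0 higher, PLOD3, CRTAP and BMP1. With only the even arrays of 1 dpn 1 was lower, and the median log2 change of the list was 0.02, against -0.29 with all arrays.

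All 18 measured collagen-binding proteoglycans and glycoproteins were lower at 188 dpn than at 94 dpc, with a median log2 change of -2.04. At 1 dpn against 94 dpc 14 were lower and 1 higher, at 28 dpn against 1 dpn 1 was lower and 1 higher, and at 188 dpn against 28 dpn 11 were lower and 0 higher. The largest falls over the whole span were those of POSTN (log2 change -6.86), ASPN (-5.03) and THBS2 (-4.60). Among 15 matrix turnover genes, which include proteases and their inhibitors, 6 were lower and 1 higher at 188 dpn than at 94 dpc. MMP14, a membrane collagenase, averaged 100.2 at 188 dpn and 1179 at 94 dpc (adjusted p = 2.3e-07), and the gelatinase MMP2 617 and 3459 (adjusted p = 1e-08). The inhibitor TIMP1 was lower too (689.5 and 3576, adjusted p = 4.7e-08). For 1 dpn against 94 dpc the turnover list had 5 lower and 1 higher, for 28 dpn against 1 dpn 2 lower and 2 higher, and for 188 dpn against 28 dpn 6 lower and 0 higher.

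Of 8 basement membrane partners, 3 were lower and 1 higher at 188 dpn than at 94 dpc, where 27% and 18.4% of the brightest probe sets of named genes were. Nidogen NID2, which links laminin to type IV collagen, averaged 365 at 188 dpn and 3706 at 94 dpc (log2 change -3.29, SE 0.18, adjusted p = 2.5e-11), whereas the sarcoglycan SGCD, of the dystrophin complex in the fibre membrane, averaged 4656 and 1828 (log2 change 1.31, adjusted p = 0.00013). In the other 3 comparisons, in order of age, this list had 3 lower and 2 higher, 0 lower and 2 higher, and 2 lower and 0 higher. Of 13 focal adhesion genes, which link integrins to actin, 8 were lower and 1 higher at 188 dpn than at 94 dpc, with 8 lower and 1 higher, 2 lower and 1 higher, and 5 lower and 0 higher in the successive steps. FHL2 averaged 299 at 188 dpn and 2316 at 94 dpc (adjusted p = 9.8e-08), and the tensin TNS3 330.2 and 1996 (adjusted p = 9.8e-09). Of 9 genes of profibrotic signals 3 were lower and 1 higher over the whole span, near the 27% and 18.4% of named genes. TGFB3 averaged 99.7 at 188 dpn and 787 at 94 dpc (adjusted p = 9.6e-08), and SMAD4 2636 and 1356 (adjusted p = 0.00101). The successive steps of that list had 3 lower and 0 higher, 3 lower and 0 higher, and 3 lower and 3 higher. At 28 dpn against 1 dpn the list's median log2 change was 0.45, opposite in sign to its calls, and with only the even arrays 2 were lower and 3 higher.

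**Figure D5:**
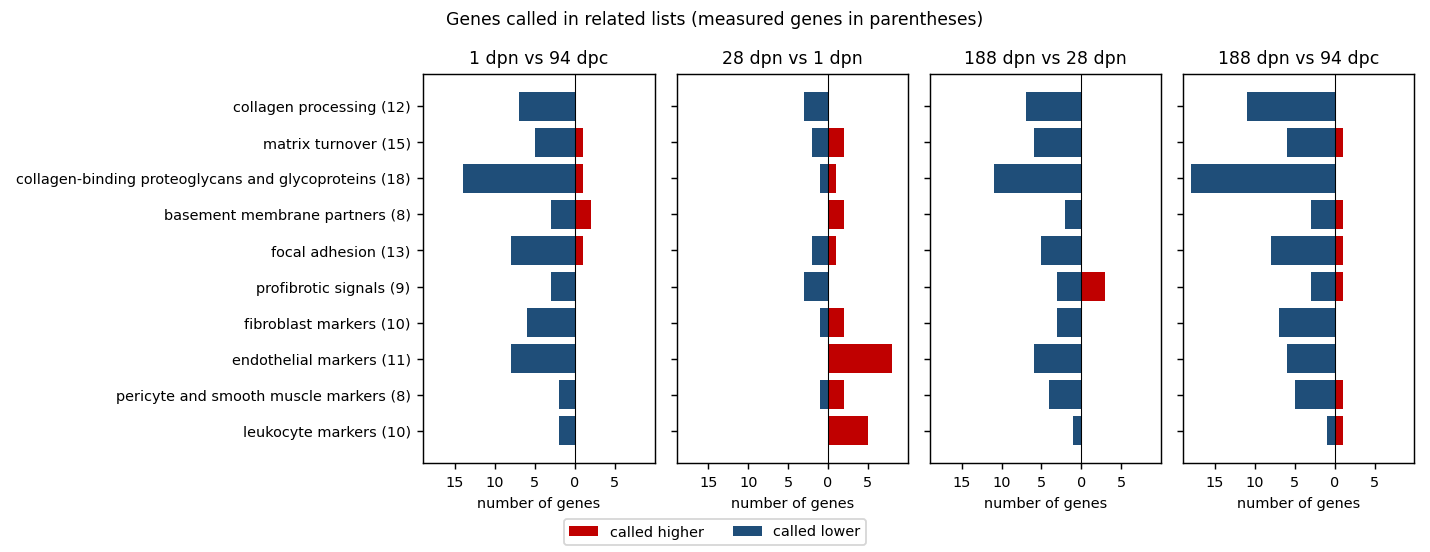
Number of genes called lower (blue, to the left of 0) and higher (red, to the right) in 10 related lists and cell type marker lists, for 4 comparisons, with the number measured in parentheses. Collagen-binding proteoglycans and glycoproteins are lower in 18 of 18 at 188 dpn against 94 dpc, and endothelial markers are lower in 8 of 11 at 1 dpn and higher in 8 of 11 at 28 dpn.

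Markers of the cells that make these chains moved as well. Of 10 fibroblast markers, 6 were lower and 0 higher at 1 dpn than at 94 dpc, 1 lower and 2 higher at 28 dpn than at 1 dpn, 3 lower and 0 higher at 188 dpn than at 28 dpn, and 7 lower and 0 higher over the whole span. Their summed signal was 39977 to 55854 at 94 dpc, 20341 to 28756 at 1 dpn, 21370 to 36900 at 28 dpn and 15838 to 24037 at 188 dpn. Of this list TCF4 alone lay below background at every stage, and DCN, LUM, DPT, FBLN1 and MFAP5 also belong to the collagen-binding list. Of 11 endothelial markers, 8 were lower at 1 dpn than at 94 dpc, 8 higher at 28 dpn than at 1 dpn, 6 lower at 188 dpn than at 28 dpn, and 6 lower over the whole span, with no call the other way. Their sum was 15956 to 18891 at 94 dpc, 5360 to 7123 at 1 dpn, 9453 to 14064 at 28 dpn and 4267 to 5822 at 188 dpn, and none lay below background at every stage. The part of either cell type in the changes of the collagen, laminin and integrin chains was not tested.

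Markers of other cell types were counted in the same way, and the shares of named genes given with the related lists apply here too. Several counts lay near these shares. Among them were the 2 of 8 pericyte and smooth muscle markers lower at 1 dpn against 94 dpc. Others were the 3 of 11 liver and 2 of 10 leukocyte markers lower in that comparison. The 3 of 11 liver markers lower at 188 dpn against 94 dpc also lay near the share. Pericyte and smooth muscle markers, 8 measured, had 2 lower and 0 higher at 1 dpn against 94 dpc, 1 lower and 2 higher at 28 dpn against 1 dpn, 4 lower and 0 higher at 188 dpn against 28 dpn, and 5 lower and 1 higher over the whole span. Leukocyte markers had 5 of 10 higher and 0 lower at 28 dpn than at 1 dpn, the step in which ITGAM was called, with sums of 1830 to 5314 at 28 dpn and 1221 to 1743 at 1 dpn. In the other comparisons they had 2 lower at 1 dpn against 94 dpc, 1 lower at 188 dpn against 28 dpn, and 1 lower and 1 higher over the whole span. Of 4 tendon and cartilage markers 2 were lower at 188 dpn than at 94 dpc, as was the type II chain COL2A1 by its brighter probe set. The sums of these markers were 127 to 243 at 188 dpn and 713 to 2969 at 94 dpc. SOX9 lay below background at every stage. That list had 1 lower at 1 dpn against 94 dpc and no other call. Of 4 Schwann cell markers 2 were lower at 1 dpn against 94 dpc, 1 was higher at 28 dpn against 1 dpn, 2 were lower at 188 dpn against 28 dpn and 3 lower over the whole span. Of 4 adipocyte markers 2 were higher at 1 dpn than at 94 dpc, with sums of 9209 to 16223 at 1 dpn and 3342 to 6412 at 94 dpc. In the next step 1 adipocyte marker was higher, and at 188 dpn 1 was lower against 28 dpn and 1 against 94 dpc, where the median log2 change of the list was 0.69, opposite in sign to that call. Of 5 satellite cell and myogenic markers 4 were lower and 1 higher at 1 dpn than at 94 dpc, 1 higher in the next step, 2 lower and 1 higher at 188 dpn against 28 dpn, and 3 lower and 1 higher over the whole span. The median log2 change of that list over the whole span was -2.59. Its summed signal did not follow the median, with 4274 to 5320 at 94 dpc and 5109 to 8200 at 188 dpn. Of 11 liver markers 3 were lower and 1 higher at 1 dpn than at 94 dpc, 1 was lower in each of the 2 later steps, and 3 were lower over the whole span.

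Skeletal muscle markers had 9 of 10 higher and 0 lower at 188 dpn than at 94 dpc, 5 higher both at 1 dpn against 94 dpc and at 28 dpn against 1 dpn, and no call at 188 dpn against 28 dpn. With only the even arrays of 1 dpn these 2 counts were 1 and 9.

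The other list counts at the steps around 1 dpn also moved on the even arrays. With these arrays 17.6% of all probe sets were lower and 7.79% higher at 1 dpn against 94 dpc. At 28 dpn against 1 dpn 5.39% were lower and 11.2% higher. With all 6 arrays of 1 dpn the shares of the brightest probe sets of named genes lay above those of all probe sets. With the even arrays only the shares of all probe sets were computed. At 1 dpn against 94 dpc the lower counts were then 7 for collagen processing, 4 for matrix turnover, 11 for collagen-binding proteins, 2 for basement membrane partners, 6 for focal adhesion and 3 for profibrotic signals. Among the marker lists they were 5 for fibroblasts, 6 for endothelium, 2 for pericytes and smooth muscle, 3 for satellite cells, 2 for Schwann cells, 3 for liver and 0 for leukocytes and for tendon and cartilage. The adipocyte list kept its count of 2 higher, and the other lists of this paragraph had 0 higher. At 28 dpn against 1 dpn matrix turnover then had 1 lower and 1 higher, collagen-binding proteins 0 lower and 3 higher, basement membrane partners 0 lower and 2 higher, and focal adhesion 0 lower and 1 higher. Fibroblast markers had 0 lower and 2 higher, endothelial markers 6 higher, leukocyte markers 3 higher, pericyte and smooth muscle markers 1 higher and adipocyte markers 1 higher, with no lower call. Satellite cell, Schwann cell, tendon and liver markers had no call in that step.

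The arrays share nearly the same trimmed mean, so a signal is relative to the other transcripts on its array. With each array centred on its median instead, the median change of all probe sets was 0.18 at 1 dpn against 94 dpc and 0.20 at 188 dpn against 94 dpc, where it was -0.08 and -0.07 on the deposited scale. The direction of the 13 falls at 1 dpn and of the 17 falls at 188 dpn against 94 dpc was the same on both scales.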

How the data were processed

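RNA of 22 samples was hybridised to 1-colour Affymetrix pig arrays, 1 array a sample. The deposited values are linear signal intensities, and the submitters' processing notes name the scanner software GCOS 1.1.1. On each array their trimmed mean, with the lowest and highest 2% left out, is nearly the same, so they were used on the deposited scale. Background correction and summary method are not given in the sources used here, nor is a genome build.

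The 124 control probe sets were left out of tests. A linear model with 1 mean per stage was fitted to log2(signal + 16) of 23999 probe sets with limma 3.58.1 (R 4.3.3), and p-values of the F test and of 4 comparisons were adjusted by Benjamini-Hochberg over all of them. The script was tested on simulated data with 200 changed probe sets. Of the probe sets, 10069 carried 1 gene symbol, 198 several and 13732 none, and all 31 genes matched the RefSeq gene table. A gene whose arrays of a stage all lay below background has a bound in place of a fold, computed against the background on each array. Levels of different probe sets are not compared, apart from the marker sums that check the tissue label. The number of arrays limits the precision.

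The 31 genes, their roles and the related lists were chosen with earlier results of these data known. Up to 12 called rises and 12 called falls of largest change were to be named per comparison, and up to 3 called genes per list. COL6A3 at 1 dpn against 94 dpc, and ITGA5, COL5A3, ITGB1BP2, ITGB5 and ITGB1 at 188 dpn against 94 dpc, fall outside this rule and were named after their values were seen. Alternatives were other scalings, pseudocounts, variance models, weights, filters and probe set choices, and each sample left out in turn. The split of the 1 dpn arrays at a GAPDH 5'/3' ratio of 0.5 was chosen after seeing the data.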

Additional observations from a re-analysis of the deposited data

Results flagged for a closer look

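In 15 of 124 groups of 4 to 6 values, 1 gene at 1 stage, the highest or lowest sample lay farther from the nearest other sample than Dixon's 95% limit allows, where chance gives about 1 in 20. Replicate 2 of 94 dpc was lowest in COL5A1, with a signal of 4985 against 6469 in the nearest sample, and in ITGB3, with 460.2 against 611. Replicate 1 of that stage was lowest in LAMB1 (4280 against 5118) and replicate 4 in ITGA2 (4.20 against 20.0, both below background).

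At 1 dpn the samples that stood apart were the 2 with even 5' signal. Replicate 1 was lowest in COL5A1 (739 against 3065), replicate 6 was lowest in LAMC1 (6685 against 10195) and highest in COL6A2 (1225 against 666). At 28 dpn replicate 6 was lowest in COL1A2 (832 against 1689.5) and in ITGA5 (8.43 against 91.6), and replicate 2 was lowest in COL11A1 (4.99 against 43.9).

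At 188 dpn replicate 2 was lowest in COL11A1 (40.5 against 65.5) and ITGA8 (11.5 against 61.3). Replicate 1 was lowest in ITGB5 (551 against 765) and highest in ITGAM (91.7 against 65.7), and replicate 4 was highest in ITGB7 (73.7 against 5.93). Without the sample named, COL1A2 stayed called at 28 dpn against 1 dpn, and ITGAM and ITGB5 at 188 dpn against 94 dpc.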

How the results depend on the processing

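No paired analysis was possible because each sample number occurs once and litters are not labelled. Of the 49 gene calls in the 4 comparisons, 30 kept direction and call under the alternatives of scaling, pseudocount, variance model, weights, covariate, filter, probe set choice and stages fitted, and 44 kept both without each sample in turn. The 2 reversals came with the mean of a gene's probe sets: LAMC1 at 28 dpn against 1 dpn (log2 change 0.50) and ITGA2 at 188 dpn against 94 dpc (-0.28). That mean lost 10 other calls, the 1 dpn arrays with even 5' signal 9, the GAPDH ratio as a covariate 8 and median-centred arrays 8. The number of the 31 genes called at 28 dpn against 1 dpn, 6 as reported, was 2 with only the stages compared, 3 on the even and 10 on the low 5' arrays of 1 dpn, and 3 to 8 without single samples, 3 without replicate 3 of 1 dpn or replicate 1 or 6 of 28 dpn. The other counts stayed within 1.5 times: 11 to 15 at 1 dpn against 94 dpc, 8 to 13 at 188 dpn against 28 dpn, 13 to 20 at 188 dpn against 94 dpc and 16 to 23 for the F test. Probe sets near background, at a signal of 69.7, limit COL5A2, COL2A1, COL3A1, ITGB3 at 188 dpn, ITGA2, ITGA5, ITGA8 and ITGAM. They also limit the genes with few arrays above background.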
